A study of Mus musculus with 14 samples.

Results

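A set of 34 genes of the cell cycle and of DNA replication was followed in mouse liver. It was taken as a fixed list of gene names, and all 34 were found among the 24970 genes that had any count. The study placed silk scaffolds in mice fed a high-fat diet and sequenced liver RNA. For 6 liver libraries the scaffold carried differentiated pre-adipocytes grown from the stromal cells of brown fat (BAT) (titles "iBAT 2x", called transplant here). For 8 libraries it was empty (titles "Sham-WT", called empty scaffold). Both groups received a scaffold and the high-fat diet. What "2x" stands for, the strain behind "WT", the sex, the age and the time after surgery do not appear in the labels. The transplanted cells were not sequenced here, so the values below describe the recipients' livers.

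Cells divide by passing through G1, in which D-type cyclins with CDK4 or CDK6 and then E-type cyclins with CDK2 release E2F transcription factors from RB proteins. DNA replication follows in S phase, with the MCM2-7 helicase, the clamp PCNA and enzymes of nucleotide supply, and then G2 and mitosis under cyclin A, cyclin B and CDK1. Most hepatocytes of an adult liver are out of the cycle and re-enter it after injury or loss of tissue, while immune and stromal cells in the organ can divide as well.

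The libraries held 22898793 to 28910968 estimated counts in transplant livers and 19482580 to 28723928 in empty scaffold livers, with no difference detected in total (exact permutation test, two-sided, p = 0.31). Of 13127 genes with enough counts to test, 435 (3.31%) were higher and 555 (4.23%) lower in transplant livers, 990 in all (7.54%), by edgeR's quasi-likelihood test at a Benjamini-Hochberg adjusted p under 0.05. The median log2 fold change over these genes was -0.02. The numbers in the library titles fell into 2 ranges, below 100 (3 transplant and 4 empty scaffold livers) and 100 or above (3 and 4), and what they count is not given. Nothing in the sources says that libraries of a group came from separate animals beyond their separate titles, so the p-values measure the spread between these libraries.

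Of the 34 genes, 33 could be tested, and 2 passed. Tk1, which encodes thymidine kinase and supplies thymidine phosphate during S phase, rose in transplant livers. Cdk6, one of the kinases that pair with D-type cyclins in G1, fell. The called share was 2 of 33 (6.06%) against 7.54% of all tested genes, and 7.13% with RLE scaling, under which the same count of 2 passed. At an unadjusted p under 0.05 it was 10 of 33 (30.3%) against 3940 of 13127 over all tested genes, so neither share stood above the background. The direction was less even. The log2 fold change was below 0 for 23 of the 33 genes (median -0.30), against 52.9% of all tested genes. In bulk liver, fewer dividing cells and less of these transcripts per cell cannot be told apart.

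**Figure D1:**
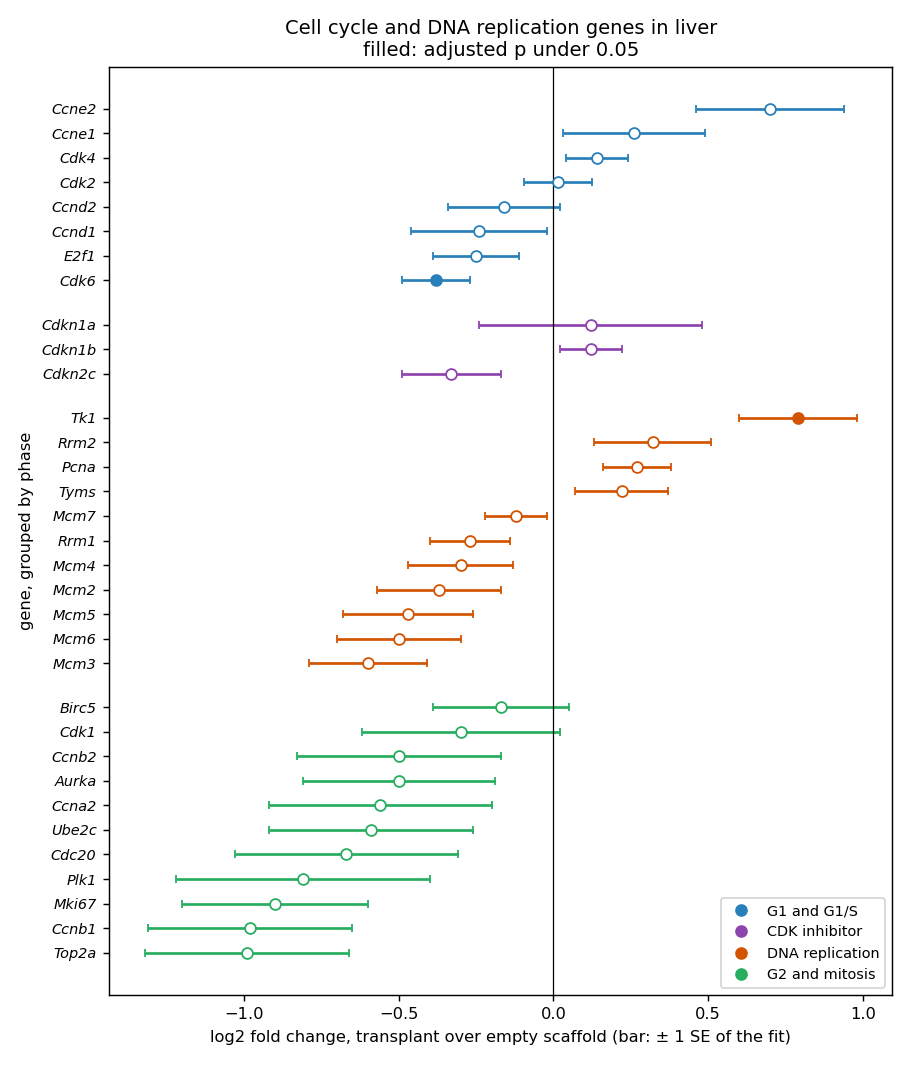
Log2 fold change (transplant over empty scaffold) of the 33 tested genes, grouped by phase, with bars of 1 standard error of the edgeR fit and filled points at an adjusted p under 0.05. Only Tk1 and Cdk6 are filled, all 11 tested genes of G2 and mitosis lie left of 0, and so do all 6 MCM subunits.

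Levels per transcript length differed widely within the list. In deposited TPM (the share of transcripts scaled to 1000000, summed over each gene's transcripts), Cdk4 was the highest member, at 32.3 ± 2.92 in transplant and 37.4 ± 5.36 in empty scaffold livers (SD, n = 6 and 8). Pcna followed with 21.2 ± 1.7 TPM in transplant and 23.6 ± 2.46 TPM in empty scaffold livers. Mki67 and Top2a, which mark cycling cells, had 0.11 ± 0.0443 and 0.193 ± 0.0969 TPM in transplant livers, against 0.273 ± 0.118 and 0.593 ± 0.326 TPM in empty scaffold livers. TPM and the fitted fold changes can point in opposite directions, as for Cdk4 and Pcna, because the scalings differ. The log2 ratio of mean TPM had a median of -0.47 over all tested genes, and with libraries scaled by their total count alone the median log2 fold change was -0.25. Against 0, 23 of the 33 genes were lower in transplant livers under TMM scaling (which sets the typical gene to no change), 27 with total count scaling and 31 in the ratio of mean TPM. Relative to the median of all genes, which a common shift does not alter, 23 were lower and 10 higher in each of these. With total count scaling 13 of 33 genes passed, all lower in transplant livers, against 22.0% of all genes. All CPM (counts per 1000000 counts) below are on the TMM scale.

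One gene was near the detection floor in both groups, set as a median estimated count under 10. Bub1, a kinase of the spindle checkpoint, had 0 or 1 count in every library, 6 counts in all, and was at 0 in 8 of 14. It was not tested. Ccnb1 and Plk1 had a median of 5.5 counts each in transplant livers, under that limit, and 10 or more in empty scaffold livers. In 14 of the 34 genes the median was under 50 counts in both groups. They were Ccne1, Ccne2, Mcm5 and every listed gene of G2 and mitosis except Mki67 (medians of 22.5 counts in transplant and 51.5 in empty scaffold livers). Besides Bub1, Plk1, Ccna2 and Ccnb1 fell to 3 counts or fewer in some library, with lowest counts of 1, 2 and 3. In CPM, 3 counts corresponded to 0.0929 to 0.177 depending on the library.

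Of the groups in the list, the genes of G2 and mitosis had the lowest median log2 fold change. All 11 tested genes were below 0 (median -0.59, against -0.02 over all tested genes), and none passed edgeR's test, with 3 of 11 at an unadjusted p under 0.05 and 2 called by DESeq2. The summed level of the mitotic genes was 4.55 to 8.68 CPM in transplant livers (median 7.18) and 5.05 to 16.1 CPM in empty scaffold livers (median 11.5). Mki67 (ENSMUSG00000031004), whose product Ki-67 coats mitotic chromosomes and is a common marker of dividing cells, had a lowest, median and highest level of 0.724, 0.977 and 1.47 CPM in transplant livers, against 0.605, 2.18 and 2.97 CPM in empty scaffold livers. All 6 transplant livers lay below the empty scaffold median, but empty scaffold replicate 5 was the lowest of the 14 libraries and replicate 1, at 1.02 CPM, lay among the transplant livers. The log2 fold change was -0.90 ± 0.30 (SE), with an adjusted p of 0.0658 by edgeR.

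Top2a (ENSMUSG00000020914), which encodes the topoisomerase that untangles sister chromatids, is also a marker of dividing cells. It had 0.35, 0.582 and 0.98 CPM in transplant livers, against 0.302, 1.36 and 1.77 CPM in empty scaffold livers (lowest, median, highest). Again all 6 transplant livers were below the empty scaffold median and empty scaffold replicate 5 was the lowest of all. Its log2 fold change was -0.99 ± 0.33 (adjusted p = 0.0689, edgeR). Ccnb1, cyclin B1, the partner of CDK1 at mitotic entry, had 0.129, 0.252 and 0.449 CPM in transplant livers, against 0.259, 0.57 and 0.81 CPM in empty scaffold livers. In CPM 3 transplant livers lay below every empty scaffold liver, but by very few counts. These were transplant replicates 3, 4 and 5, with 3, 4 and 4 counts of Ccnb1, while empty scaffold replicates 5 and 7 had 6 and 5. The log2 fold change of Ccnb1 was -0.98 ± 0.33 (adjusted p = 0.0714, edgeR).

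The other mitotic genes had smaller or less precise differences. Plk1, a kinase of spindle assembly, was at -0.81 ± 0.41. Cdc20 and Ube2c, which act with the anaphase-promoting complex in the destruction of cyclin B, were at -0.67 ± 0.36 and -0.59 ± 0.33. Cyclin A2 (Ccna2) was at -0.56 ± 0.36, cyclin B2 (Ccnb2) at -0.50 ± 0.33 and the centrosome kinase Aurka at -0.50 ± 0.31. Cdk1 itself was at -0.30 ± 0.32, and Birc5 (survivin, a subunit of the chromosomal passenger complex) at -0.17 ± 0.22. Adjusted p-values of these 8 genes lay between 0.186 and 0.605.

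Empty scaffold replicate 5 had 0.216 CPM of Cdc20 and 0.302 CPM of Ube2c, again the lowest of the 14 libraries, and the highest summed level of Kupffer cell and macrophage markers (580 CPM), beside the lowest stellate and endothelial marker levels of its group. Without that library, 6 of 33 genes passed instead of 2, namely Tk1, Cdk6, Mcm3, Mki67, Top2a and Ccnb1, and 12.0% of all tested genes did. DESeq2's Wald test on all 14 libraries also called 6 of 33 (Tk1, Cdk6, Ccne2, Mcm3, Mki67 and Top2a), beside 15.0% of all tested genes.

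**Figure D2:**
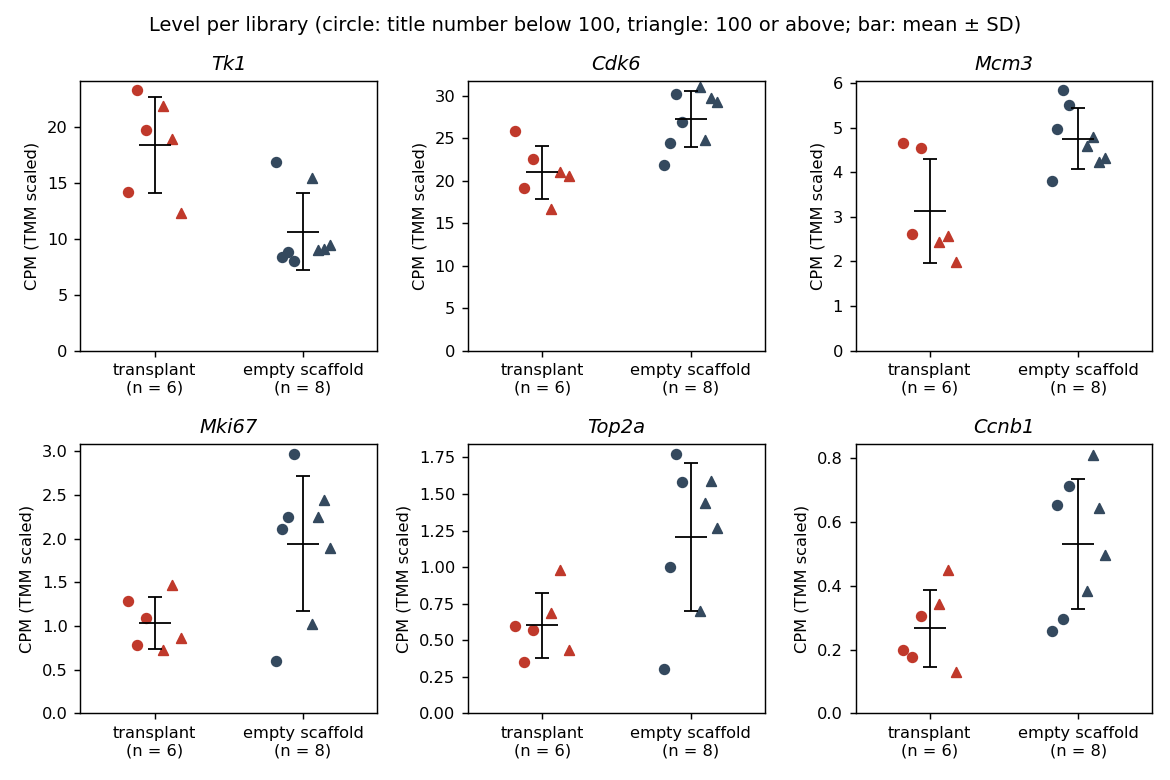
Level in CPM of 6 genes in each library of the transplant group (left) and the empty scaffold group (right), with the mean and SD as black bars. Tk1 is higher in most transplant livers and the other 5 genes are lower, and the groups overlap in every panel, with empty scaffold replicate 5 lowest of its group for Mki67, Top2a, Ccnb1, Cdk6 and Mcm3.

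Promoter sequences are shown for 2 mitotic genes, 1 helicase subunit and Tk1, since these stand for the different patterns in the list. The windows are RefSeq's for build GRCm38.p6, 250 bases before to 50 bases after the annotated start, printed 5′ to 3′ on the gene's strand. Capitals mark matches to 3 motifs known from cell cycle promoters, searched on both strands. These were the cell cycle genes homology region (CHR; TTTGAA or TTCGAA), bound by the DREAM and MuvB complexes, the CCAAT box (CCAAT), bound by NF-Y, and the E2F site (TTTGGCGC, TTTGCCGC, TTTCGCGC or TTTCCCGC). Motif matches of different kinds did not share bases in the 4 windows. Mki67 lies at chr7:135716330-135716629, Top2a at chr11:99024140-99024439, Mcm3 at chr1:20820263-20820562 and Tk1 at chr11:117825965-117826264, all on the minus strand.
Mki67: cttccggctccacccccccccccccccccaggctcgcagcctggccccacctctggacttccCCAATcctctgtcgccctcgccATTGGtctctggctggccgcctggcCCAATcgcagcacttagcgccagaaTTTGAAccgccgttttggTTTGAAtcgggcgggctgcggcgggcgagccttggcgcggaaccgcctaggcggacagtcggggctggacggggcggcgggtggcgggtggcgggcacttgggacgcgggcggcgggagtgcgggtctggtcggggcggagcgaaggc
Top2a: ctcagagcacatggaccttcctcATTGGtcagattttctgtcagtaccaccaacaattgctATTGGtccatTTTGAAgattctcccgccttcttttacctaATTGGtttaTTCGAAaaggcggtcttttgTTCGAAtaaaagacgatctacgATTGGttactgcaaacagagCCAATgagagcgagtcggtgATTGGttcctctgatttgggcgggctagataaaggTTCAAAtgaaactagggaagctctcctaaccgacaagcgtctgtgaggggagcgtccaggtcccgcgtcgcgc
Mcm3: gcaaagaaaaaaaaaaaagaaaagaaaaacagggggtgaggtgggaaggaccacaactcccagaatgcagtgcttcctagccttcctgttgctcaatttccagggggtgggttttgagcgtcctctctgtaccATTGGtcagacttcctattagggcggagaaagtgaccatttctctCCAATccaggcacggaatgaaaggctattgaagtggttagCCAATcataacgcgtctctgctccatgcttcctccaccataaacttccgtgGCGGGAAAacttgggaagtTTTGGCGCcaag
Tk1: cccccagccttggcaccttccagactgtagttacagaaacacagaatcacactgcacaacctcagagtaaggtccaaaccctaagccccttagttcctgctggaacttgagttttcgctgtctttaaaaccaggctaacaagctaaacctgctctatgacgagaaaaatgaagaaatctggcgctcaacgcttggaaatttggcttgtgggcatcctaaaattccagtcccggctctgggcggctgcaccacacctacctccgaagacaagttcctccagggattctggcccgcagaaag

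Windows were found for 29 of the 34 genes (32 windows), and Ccna2, Ccnd1, Ccnd2, Ccne2 and Mcm4 had none in the table. A CHR match stood in 9 of 11 windows of the G2 and mitosis genes (81.8%), in 2 of 11 of the replication genes and in 19.2% of all 32851 promoter windows of the same length. A CCAAT match stood in 10 of 11 windows of the mitotic genes and 9 of 11 of the replication genes, against 37.4% of all windows. An E2F match was found in 4 of 11 windows of the replication genes (36.4%) and 1 of 11 of the mitotic genes (Cdk1), against 2.26% of all windows. The 4 were all among the 6 windows of the MCM genes (Mcm3, Mcm5, Mcm6 and Mcm7). The Tk1 window held none of these motifs. Such matches describe the windows and do not show binding in these livers.

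Within DNA replication, the helicase subunits and most genes of nucleotide supply lay on opposite sides of 0 on the TMM scale. In mean TPM, Tk1 alone of the 5 genes of nucleotide supply and PCNA was higher in transplant livers. All 6 subunits of the MCM2-7 helicase, which unwinds DNA ahead of the fork, were below 0 (median -0.42), and none passed edgeR's test, with 3 at an unadjusted p under 0.05 and 1 (Mcm3) called by DESeq2. The summed level of the 6 subunits was 18 to 30.5 CPM in transplant livers (median 21.6), against 22.8 to 33.9 CPM in empty scaffold livers (median 27.4). Mcm3 had 1.98, 2.6 and 4.66 CPM in transplant livers, against 3.8, 4.69 and 5.85 CPM in empty scaffold livers (lowest, median, highest). In 4 transplant livers the level was below every empty scaffold liver, and replicates 4 and 6 were within that group's range. This gave a log2 fold change of -0.60 ± 0.19 (adjusted p = 0.0552, edgeR).

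Mcm2 had 2.36, 3.34 and 5.5 CPM in transplant livers, against 2.85, 4.71 and 5.85 CPM in empty scaffold livers. All but 1 of the 6 transplant livers were below the empty scaffold median, with replicate 4 the exception. Mcm2 was thus at -0.37 ± 0.20 (adjusted p = 0.221, edgeR). Mcm6, Mcm5, Mcm4 and Mcm7 were at -0.50 ± 0.20, -0.47 ± 0.21, -0.30 ± 0.17 and -0.12 ± 0.10, with adjusted p-values of 0.114 to 0.433.

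Tk1 (ENSMUSG00000025574) had 12.3, 19.3 and 23.3 CPM in transplant livers, against 8.04, 9.07 and 16.9 CPM in empty scaffold livers (lowest, median, highest). Of the 8 empty scaffold livers, 6 lay at 8.04 to 9.48 CPM, below every transplant liver, while empty scaffold replicates 1 and 5, at 15.4 and 16.9 CPM, lay among the transplant livers. The log2 fold change was 0.79 ± 0.19 (adjusted p = 0.0288, edgeR). It stayed between 0.71 and 0.91 when any 1 library was left out, passing in 9 of the 14 fits. The exceptions were the fits without transplant replicate 1 (adjusted p = 0.0794) or 5 (0.0708), or without empty scaffold replicate 3 (0.061), 4 (0.0596) or 8 (0.0561), all by edgeR. It no longer passed once trends with length and GC content had been taken out (0.66, adjusted p = 0.07), with an effective length offset (0.73, adjusted p = 0.0561) or with total count scaling (0.55, adjusted p = 0.0541), all by edgeR. The protein-coding transcript Tk1-201 held 93.6% of the gene's counts.

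The neighbour Afmid, an arylformamidase gene looked up after these values were seen, lies on the opposite strand of chromosome 11. It overlaps Tk1 by 169 bases, of which 83 are exon bases of both genes. Its levels were 89.8, 128 and 149 CPM in transplant livers, against 58.3, 73.8 and 109 CPM in empty scaffold livers, and its log2 fold change was 0.65 ± 0.16 (adjusted p = 0.0282, edgeR). The library kit keeps strand, but whether counting used it is not given, so in the 83 shared bases reads of the 2 genes might be mixed. The promoter windows of the 2 genes also share 4 bases. Neither the part of mixed reads nor that of the adjoining promoters in the Tk1 result was tested.

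Pcna, the sliding clamp of the replication fork, had 25.7, 31.2 and 32.4 CPM in transplant livers, against 19.1, 23.8 and 30.5 CPM in empty scaffold livers. All 6 transplant livers were above the empty scaffold median and 4 were above every empty scaffold liver. This amounted to a log2 fold change of 0.27 ± 0.11 (adjusted p = 0.108, edgeR). Rrm2, the S-phase subunit of ribonucleotide reductase, was at 0.32 ± 0.19, thymidylate synthase (Tyms) at 0.22 ± 0.15 and the large reductase subunit Rrm1 at -0.27 ± 0.13, with adjusted p-values of 0.171 to 0.348. Of the 5 genes of nucleotide supply and PCNA, 4 were thus above 0 (median 0.27), with total count scaling moving them towards 0 (Pcna 0.05, Rrm2 0.08). With length and GC trends removed 4 of the 5 stayed above 0 (median 0.19), and Pcna was at 0.08 (adjusted p = 0.656, edgeR). Rrm2 averaged 1.4 ± 0.208 TPM in transplant and 1.58 ± 0.449 TPM in empty scaffold livers, and Tyms 7.52 ± 2.03 TPM in transplant and 8.65 ± 1.27 TPM in empty scaffold livers (SD).

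The genes of G1 and of entry into S phase were split 4 above and 4 below 0 (median -0.07), with 1 passing. Cdk6 (ENSMUSG00000040274) had 16.7, 20.8 and 25.8 CPM in transplant livers, against 21.8, 28.1 and 31 CPM in empty scaffold livers (lowest, median, highest). In 4 transplant livers the level was below every empty scaffold liver and all 6 were below that group's median. Cdk6 was thus at -0.38 ± 0.11 (adjusted p = 0.0438, edgeR). It passed in 4 of 14 fits with 1 library left out (-0.45 to -0.32), those without transplant replicate 4 or empty scaffold replicate 5, 6 or 7, and reached an adjusted p of up to 0.11 in the other 10 (edgeR). Once those trends were taken out it was -0.09 (adjusted p = 0.714, edgeR). Cdk6 is the longest member, with a mean transcript length of 11419 bases.

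Ccnd1, cyclin D1, which carries growth signals into the cycle, had 11.9, 25.5 and 34.9 CPM in transplant livers, against 17.6, 30 and 50.2 CPM in empty scaffold livers. The groups overlapped over most of their range, and the log2 fold change was -0.24 ± 0.22 (adjusted p = 0.48, edgeR). Ccne2, cyclin E2, which activates CDK2 at the start of S phase, ran from 1.1 to 2.21 CPM in transplant livers and from 0.591 to 1.46 CPM in empty scaffold livers. It was at 0.70 ± 0.24 (adjusted p = 0.0736, edgeR), with all 6 transplant livers above the empty scaffold median. Ccne1 was at 0.26 ± 0.23, Cdk4 at 0.14 ± 0.10, Cdk2 at 0.01 ± 0.11, Ccnd2 at -0.16 ± 0.18 and the transcription factor E2f1 at -0.25 ± 0.14, with adjusted p-values of 0.243 to 0.937.

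In the main edgeR fit and by DESeq2, none of the 3 CDK inhibitors passed or had an unadjusted p under 0.05. Cdkn1a, which encodes the p53 target p21, had 5.03, 13.5 and 34.8 CPM in transplant livers, against 5.73, 13.7 and 22.6 CPM in empty scaffold livers. The medians were nearly equal and transplant replicate 3 held the highest value of all 14. Cdkn1a was at 0.12 ± 0.36 (adjusted p = 0.847, edgeR), and -0.32 without that library. Cdkn1b (p27) was at 0.12 ± 0.10 and Cdkn2c (p18), an inhibitor of CDK4 and CDK6, at -0.33 ± 0.16, with adjusted p-values of 0.446 and 0.168.

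In no member did the CPM of the 2 groups separate completely, against 1.27% of all tested genes (167).

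Across the 14 libraries, the level of Mki67 was compared with 31 other members on log2(CPM + 0.1), with permutation tests of 100000 resamples and Benjamini-Hochberg adjustment over the 31. Top2a followed it most closely (r = 0.93, rho = 0.90, adjusted p = 0.00062 for r and 0.00155 for rho). Without the 2 libraries farthest from the Mki67 median (empty scaffold replicates 5 and 8) r was 0.90. Within the title number ranges it was 0.97 below 100 and 0.93 from 100, each over 7 libraries. With group means removed it was 0.89. Mcm2 (r = 0.81, rho = 0.78), Cdc20 (0.79 and 0.75), Ube2c (0.79 and 0.76), Ccnb1 (0.76 and 0.74) and Mcm5 (0.74 and 0.64) came next, with adjusted p-values of 0.00511 to 0.0178 for r and 0.0181 to 0.0651 for rho. Without the same 2 libraries their r lay between 0.64 and 0.75. In all, 5 of 10 genes of G2 and mitosis and 6 of 10 of DNA replication reached an adjusted p under 0.05 for r, as did 1 of 8 genes of G1 (Cdk6, 0.67) and 0 of 3 CDK inhibitors. With group means removed, r of these 12 genes lay between 0.43 (Mcm6 and Rrm1) and 0.89 (Top2a), and it was 0.44 for Mcm3 and 0.46 for Cdk6. Both r and rho reached an adjusted p under 0.05 in 4 mitotic genes, 3 replication genes and none of G1. In 9 of the 10 mitotic genes r was above 0 within both number ranges. Pcna, by contrast, had an r of -0.27, which was 0.19 below 100 and -0.81 from 100. How many of all tested genes follow Mki67 at the same cut was not counted, so the counts above have no background share. The levels compared keep their trends with transcript length, and Mki67 (10060 bases) and Cdk6 (11419 bases) are the longest members. The part of length in these correlations was not tested.

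Tk1 was kept apart from these relations, because its levels formed 2 clusters of libraries. The upper cluster held all 6 transplant and 2 empty scaffold livers at 12.3 to 23.3 CPM of Tk1 and 0.605 to 1.47 CPM of Mki67. The lower held 6 empty scaffold livers at 8.04 to 9.48 CPM of Tk1 and 1.89 to 2.97 CPM of Mki67. The clusters thus did not overlap in Mki67 either, with high Tk1 beside low Mki67. Within them r was -0.19 over 8 libraries (permutation test, p = 0.649) and -0.71 over 6 (exact permutation test, p = 0.144). The rho values were -0.26 in the upper and -0.43 in the lower cluster.

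**Figure D3:**
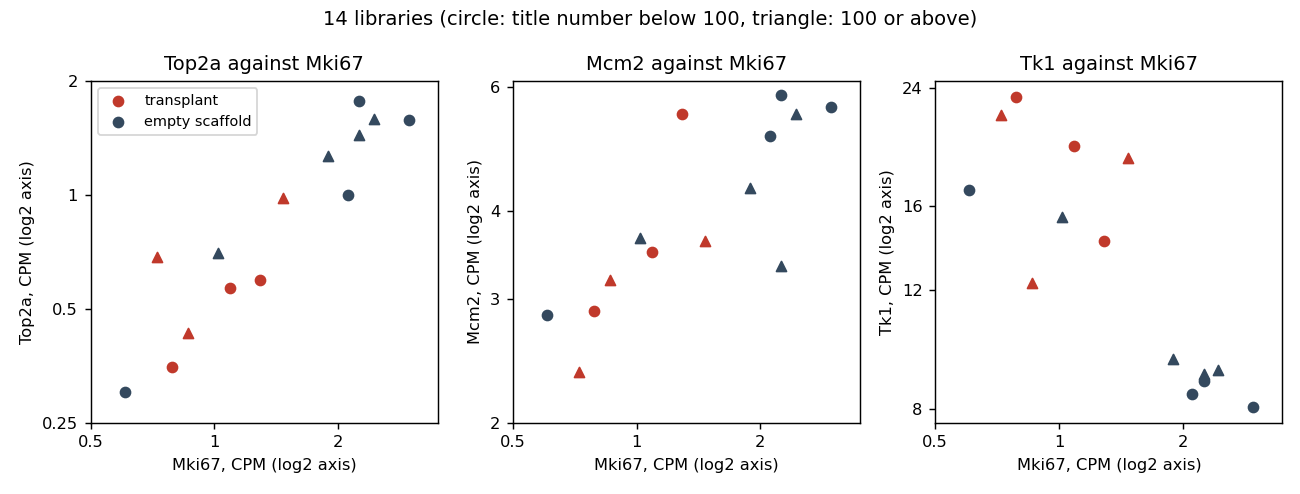
CPM of Top2a, Mcm2 and Tk1 (y, log2 axes) against CPM of Mki67 (x, log2 axis) in the 14 libraries, transplant in red and empty scaffold in dark blue. Top2a and Mcm2 are higher where Mki67 is higher, while the 8 libraries with Tk1 above 12 CPM are those with Mki67 below 1.5 CPM.

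The fold changes were compared within the 2 ranges of title numbers. Below 100, with 3 against 4 livers, 0 of 31 tested members passed by edgeR (4 at an unadjusted p under 0.05), against 0.0231% of all genes (3 of 12966). That share of all genes is at an adjusted p under 0.05, and the unadjusted share was not counted. DESeq2 was not run within the ranges. From 100, 8 of 33 passed, against 26.0% of all genes. Tk1 was at 0.86 ± 0.28 below 100 and 0.72 ± 0.23 from 100, Mki67 at -0.91 ± 0.45 and -0.90 ± 0.36, and Top2a at -1.19 ± 0.53 and -0.83 ± 0.38. Mcm6 was at -0.07 ± 0.23 below 100 and -1.06 ± 0.21 from 100, Cdk4 at -0.06 ± 0.11 and 0.37 ± 0.11, Ccnd2 at 0.22 ± 0.21 and -0.62 ± 0.19, Cdkn1a at -0.79 ± 0.44 and 0.83 ± 0.43, and Ccnb2 at -1.23 ± 0.49 and 0.15 ± 0.32.

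The difference between ranges was itself tested as an interaction, and edgeR called 0 of 33 members and 0 of 13127 genes. At an unadjusted p under 0.05, 5 of 33 members and 17.3% of genes (2275) passed, and no other tool was run on the interaction. Mcm6 had the smallest p of the members named above (interaction -0.98 ± 0.30 on the log2 scale, adjusted p = 0.176, edgeR). The 9 mitotic genes tested below 100 were all below 0 (median -0.76), as were 9 of 11 from 100 (median -0.44). With the number range as a covariate over all 14 libraries, 8 of 33 members passed (Tk1, Ccne2 and Pcna higher, Cdk6, Mcm3, Mki67, Top2a and Ccnb1 lower in transplant livers), against 19.7% of all genes.

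**Figure D4:**
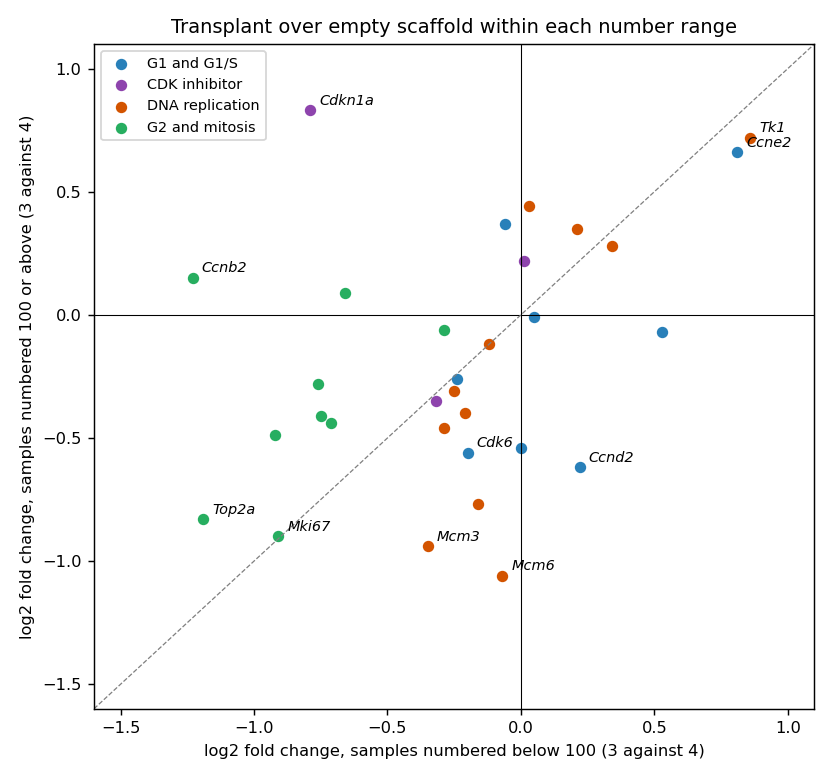
Log2 fold change (transplant over empty scaffold) of each member in libraries with title numbers below 100 (x) and 100 or above (y), 3 against 4 livers each, with the line of equal values dashed. Tk1 and Ccne2 are above 0 and Mki67 and Top2a below 0 in both ranges, whereas Mcm6 and Ccnd2 are low in the upper range and Cdkn1a and Ccnb2 differ in sign.

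Fold changes moved with transcript length. Over all 13127 tested genes the Spearman correlation of log2 fold change with mean transcript length was -0.55, and over the 33 members it was -0.21 (descriptions over genes that share libraries, so no p is given). Per doubling of length, log2 CPM changed by -0.26 to 0.03 in transplant libraries and by -0.12 to 0.24 in empty scaffold libraries, the 4 highest slopes (0.19 to 0.24) being the empty scaffold libraries numbered from 100. With smooth trends in length and GC content removed per library, the correlations were -0.04 and 0.04. The 11 mitotic genes then remained below 0 (median -0.63), the 6 MCM subunits too (median -0.27), and 0 of 33 members passed by edgeR (7 at an unadjusted p under 0.05), against 3.88% of all genes. With offsets for effective length 0 of 33 passed (8 unadjusted), against 2.4% of all genes. Both shares of all genes are at an adjusted p under 0.05, and the unadjusted shares were not counted. With both the trends removed and the number range as a covariate 2 of 33 passed (Mcm3 and Cdkn2c, both lower in transplant livers), against 7.89% of all genes. With the trends alone removed, Mki67, with a mean transcript length of 10060 bases, was at -0.61, Top2a at -0.84 and Ccnb1 at -1.09 (adjusted p = 0.248, 0.149 and 0.0697, edgeR).

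**Figure D5:**
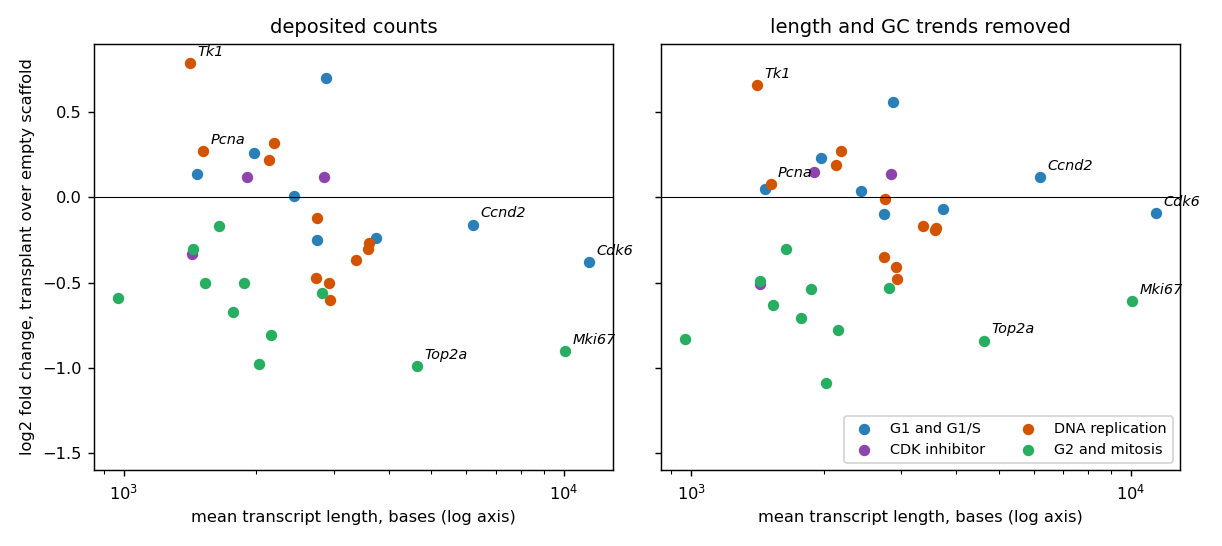
Log2 fold change (transplant over empty scaffold) of each tested member against its mean transcript length in bases (log axis), from deposited counts (left) and with length and GC trends removed (right). Cdk6 moves from -0.38 to -0.09 and Ccnd2 to above 0 on the right, while Tk1 stays above 0 and the mitotic genes stay below 0.

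Other genes of the same processes were counted from lists of names, and their calls stand beside 4.23% lower and 3.31% higher over all tested genes. Of 57 other mitosis genes 34 could be tested, 24 of them below 0 (median -0.44), and 2 fell and 0 rose. These were Ckap2, a microtubule-binding protein of the spindle (-1.25 ± 0.36, adjusted p = 0.0438, edgeR), and the condensin subunit Ncapd2 (-0.52 ± 0.15, adjusted p = 0.0469, edgeR). Ckap2 was low, at 0.25 ± 0.0933 CPM in transplant and 0.604 ± 0.317 CPM in empty scaffold livers (SD). For scale, 3 counts corresponded to 0.0929 to 0.177 CPM. Of 43 tested other replication genes, 22 were above 0 (median 0.00) and 1 rose, the replication initiation gene Mcm10 (0.46 ± 0.11, adjusted p = 0.0298, edgeR). On Mcm10, 83.6% of the counts lay on a transcript annotated with a retained intron. Of 24 other genes of G1, E2F and RB none passed by edgeR (median 0.06; 6 at an unadjusted p under 0.05 and 3 called by DESeq2). Of 15 other CDK inhibitors and brakes 1 rose, Gadd45g, a stress-induced inhibitor of growth (1.91 ± 0.46, adjusted p = 0.032, edgeR), at 9.58 ± 8.75 CPM in transplant livers and 2.58 ± 0.817 CPM in empty scaffold livers (SD). Of 18 p53 targets, Plk3 rose (0.94 ± 0.26) and Eda2r fell (-1.10 ± 0.32), with adjusted p-values of 0.0413 and 0.0458 by edgeR. With length and GC trends removed, Ncapd2 was at -0.27 (adjusted p = 0.281), Mcm10 at 0.34 (0.0541) and Plk3 at 1.06 (0.0518), and no longer passed, while Ckap2, Gadd45g and Eda2r did (edgeR). Leaving out 1 library at a time kept the call of Mcm10 and Gadd45g in 9 of 14 fits, Plk3 in 6, Eda2r in 5, Ckap2 in 4 and Ncapd2 in 3.

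Over all 14 libraries, markers of macrophages and of stromal cells also had fold changes mostly below 0, and erythroid markers had fold changes above 0. Of 15 Kupffer cell and macrophage markers 15 were below 0 (median -0.66) and 5 fell, among them Csf1r, the receptor for the macrophage growth factor (-1.02 ± 0.19), Cd68 (-1.14 ± 0.22) and Cd5l (-0.94 ± 0.18), with adjusted p-values of 0.0133 to 0.0147 by edgeR. Their summed level was 186 to 273 CPM in transplant livers, against 226 to 580 CPM in empty scaffold livers. Of 10 stellate cell and fibroblast markers 10 were below 0 (median -0.65) and 3 fell, including the collagen genes Col3a1 (-1.29 ± 0.31) and Col1a2 (-1.25 ± 0.32; adjusted p = 0.03 and 0.0347, edgeR), with summed levels of 151 to 279 CPM in transplant livers and 184 to 421 CPM in empty scaffold livers. Of 10 sinusoidal endothelial markers 2 fell (Stab2, -0.51 ± 0.09, and Cdh5, -0.67 ± 0.15), with summed levels of 105 to 155 CPM in transplant livers and 130 to 224 CPM in empty scaffold livers. Of 9 tested T, NK and B cell markers 1 fell (Ptprc, -0.97 ± 0.28), with summed levels of 6.37 to 12.6 CPM in transplant livers and 8.47 to 20.2 CPM in empty scaffold livers. No marker in these 4 lists had a median of 3 counts or fewer over all libraries. Of 10 hepatocyte markers, summed to 106000 to 158000 CPM in transplant livers and 84800 to 154000 CPM in empty scaffold livers, 9 were above 0 and 1 rose (Serpina1c, 0.68 ± 0.18), and all 10 were detected in both groups. All 8 tested erythroid markers were above 0 over all 14 libraries (median 0.41). Below title number 100, 3 were above and 5 below 0 (median -0.07), and from 100, 7 were above and 1 below (median 0.85). Their summed level had a median of 859 CPM in transplant and 841 CPM in empty scaffold livers, with transplant replicate 3 highest at 2080 CPM. Of 7 cholangiocyte, 8 erythroid and 2 neutrophil markers tested, 1 fell (the neutrophil marker Csf3r, -1.19 ± 0.32, adjusted p = 0.0393, edgeR) and none rose. With length and GC trends removed, 6 macrophage markers fell (median -0.78), whereas 0 stellate (median -0.31), 0 endothelial (median -0.18) and 0 T, NK and B cell markers passed by edgeR (5, 1 and 4 of them at an unadjusted p under 0.05), and DESeq2 was not run with the trends removed. The unadjusted share of all genes in that fit was not counted. Col3a1 (adjusted p = 0.0781), Col1a2 (0.0911), Lrat (0.152), Stab2 (-0.19, 0.237), Cdh5 (-0.45, 0.073), Ptprc (0.0607), Csf3r (0.0717) and Serpina1c (0.0813) lost their calls. Below title number 100 the stellate median was -0.16 and the endothelial median -0.12, against -1.08 and -0.58 from 100. The macrophage median was -0.70 below 100 and -0.60 from 100. Empty scaffold replicate 5, with the lowest Mki67, had the highest macrophage marker level (580 CPM) but the lowest stellate (184 CPM) and endothelial (130 CPM) levels of its group. The part of these cell types in the mitotic values was not tested.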

How the data were processed

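For 6 transplant and 8 empty scaffold libraries, liver RNA was sequenced from a stranded mRNA kit, per the labels' protocols. The deposited files give, for each transcript, estimated counts, TPM, length and effective length. The submitters' processing notes name fastp 0.20, kallisto 0.46.1, DESeq2 1.38 and GRCm39, with no role or order. Kallisto's options, the strand setting and the annotation release are not given in the sources used. The authors' estimated counts were summed per gene and rounded. The deposited TPM were summed per gene and used for levels between genes only. Deposited transcript lengths served as other covariates. Of 128803 transcripts, 120608 (93.6%) matched GENCODE M21 by identifier, holding 99.4% to 99.5% of the counts; the rest were not used.

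Genes were filtered by edgeR's filterByExpr and tested with edgeR 4.0.16 (R 4.3.3; TMM, robust quasi-likelihood test, Benjamini-Hochberg over all tested genes, called at an adjusted p under 0.05), checked on simulated data. Fold changes are transplant over empty scaffold, with standard errors from the F statistic. Alternatives were RLE factors, DESeq2 1.42.0, no filter, a mean of at least 1 CPM, the title number range as a covariate and alone, trends in length and GC content removed (splines of 4 degrees of freedom), effective length offsets and leaving out each library. Total count scaling and the trends together with the range covariate were added after seeing the data. The members and the other lists were chosen with earlier results of these data known. All 34 members are named. The lowest, median and highest CPM by group are given for the called members, the 6 smallest unadjusted p-values and Mki67, Top2a, Ccnd1, Cdkn1a, Mcm2 and Pcna. Of each other list at most 4 called genes are named, taken by adjusted p. Correlations used 100000 permutations. A clock gene list gave 1 call of 18 tested (Nr1d1, log2 fold change -0.58, adjusted p = 0.0298, edgeR). No pair of libraries of a group agreed within sampling noise (mean chi-square per gene 18.0 to 128).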

Additional observations from a re-analysis of the deposited data

Results flagged for a closer look

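In 3 of the 66 combinations of a tested gene and a group, 1 library stood far from the others by Dixon's criterion at 95%, and chance gives about 1 in 20. Ube2c in transplant replicate 4 was at 0.892 CPM, with the next highest transplant liver at 0.603 CPM. Cdkn1a in transplant replicate 3 was at 34.8 CPM, with the next highest transplant liver at 15.7 CPM. Ccnd1 in empty scaffold replicate 7 was at 50.2 CPM, with the next highest empty scaffold liver at 32.7 CPM.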

How the results depend on the processing

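The main counts were 990 genes and 2 members. They became 1965 and 6 with DESeq2, 2580 and 8 with the title number range as a covariate, 3 and 0 in libraries numbered below 100, 3488 and 8 from 100, 509 and 0 with length and GC trends removed, 315 and 0 with effective length offsets, and 2884 and 13 with total count scaling (all 13 lower). Without a filter 1 member passed. Leaving out 1 library gave 138 to 1908 genes and 0 to 6 members, with 0 when transplant replicate 1 or 5 or empty scaffold replicate 3, 4 or 8 was left out, 5 without transplant replicate 4 and 6 without empty scaffold replicate 5. The 138 genes came without transplant replicate 1 and the 1908 without empty scaffold replicate 7. In the alternatives in which each could be tested (up to 25; 23 members at a mean of at least 1 CPM and 31 below 100), 25 members kept their direction and 8 did not. Below 100 Ccnd2 was 0.22, Cdk4 -0.06 and Cdkn1a -0.79. From 100 Ccne1 was -0.07, Cdk2 -0.01, Ccnb2 0.15 and Cdk1 0.09. Ccnd2 was 0.12 with the trends removed and 0.07 with the range covariate as well. With total count scaling Cdk4 was -0.07, Cdk2 -0.22, Cdkn1a -0.07 and Cdkn1b -0.12. Leaving out 1 library gave -0.03 to 0.06 for Cdk2 and -0.32 to 0.29 for Cdkn1a. The causes were not tested, except that subsets hold fewer samples. The interaction called 0 members under each setting run. Estimated counts under 50 in 14 members limit what could be detected. No paired analysis was possible because the labels give the groups no shared replicate numbers.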
